A study of Mus musculus with 4 samples.

Results

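The genes described here are 39 mouse genes of the cell cycle and of DNA replication, taken by symbol from the gene names on the arrays. They are 39 of the 26680 gene and transcript names on the array, and all 39 had at least 1 probe. Their values come from 4 one-colour Agilent arrays of CD4+ T cells, 2 from miR-155 knockout cells (KO, genotype miR-155-/-) and 2 from wild-type cells (WT, genotype miR-155+/+), which the series' design text calls biological replicates. Cells of both genotypes carried a red fluorescent reporter of the cytokine IL-17F. The culture held anti-CD3e, anti-CD28, TGFb and IL-6, which steer T cells towards the T helper 17 type, and the cells were then sorted for CD4 and the reporter. Strain, age and sex of the mice, the reach of the deletion and the time in culture are not stated in the labels. The labels do not say which animal or culture each array came from, so the p-values measure only the spread between these samples, which may be partly technical. The series' title asks about effector gene expression and IL-23 responsiveness. The comparison here is of the genes that cells use to copy their DNA and divide.

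A T cell that is activated through its antigen receptor and CD28 leaves rest and divides quickly. In G1 phase, D-type and E-type cyclins with their kinases release E2F transcription factors, which switch on the genes of DNA synthesis for S phase. A second wave of genes peaks in G2 phase and mitosis, when the cyclin B kinase, the Aurora and Polo kinases, the spindle motors and the anaphase-promoting complex part the chromosomes. Inhibitor proteins such as p21, p27 and p18 hold the cyclin kinases back, and the kinase Wee1 delays entry into mitosis.

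The RNA deleted in the knockout is a microRNA whose seed, bases 2 to 8, pairs with target messages. RefSeq's table (GRCm38.p6) places its mature 5p form on chromosome 16 at 84714143 to 84714165, plus strand. The capitals mark the seed.
mmu-miR-155-5p: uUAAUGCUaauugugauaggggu
No probe was matched to miR-155 or its host gene, so the deletion itself was not checked.

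S phase and mitotic genes are switched on in part by different promoter elements, so the promoters of 3 members of each kind are shown. Each is the 250 bases before the start of transcription in RefSeq's table (GRCm38.p6), written 5′ to 3′ along the gene. Capitals mark 3 kinds of element searched on both strands. These were the E2F site (TTTCCCGC, TTTCGCGC, TTTGCCGC or TTTGGCGC), the cell cycle genes homology region or CHR (TTTGAA or TTCGAA), which recruits the MuvB complexes of late cell cycle genes, and the CCAAT box (CCAAT), the site of NF-Y. Neighbouring matches can overlap, as 2 of the E2F matches of Mcm6 do.
Cdc45: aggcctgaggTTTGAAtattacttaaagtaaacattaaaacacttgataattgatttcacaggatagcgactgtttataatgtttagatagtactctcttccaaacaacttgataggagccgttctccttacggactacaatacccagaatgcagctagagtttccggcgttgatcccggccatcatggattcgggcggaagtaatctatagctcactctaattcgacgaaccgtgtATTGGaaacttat
Cdc6: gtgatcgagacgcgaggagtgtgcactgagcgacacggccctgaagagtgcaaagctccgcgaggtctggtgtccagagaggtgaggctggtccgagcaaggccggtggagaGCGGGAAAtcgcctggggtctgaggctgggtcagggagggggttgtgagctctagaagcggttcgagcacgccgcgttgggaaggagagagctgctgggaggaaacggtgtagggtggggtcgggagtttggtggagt
Mcm6: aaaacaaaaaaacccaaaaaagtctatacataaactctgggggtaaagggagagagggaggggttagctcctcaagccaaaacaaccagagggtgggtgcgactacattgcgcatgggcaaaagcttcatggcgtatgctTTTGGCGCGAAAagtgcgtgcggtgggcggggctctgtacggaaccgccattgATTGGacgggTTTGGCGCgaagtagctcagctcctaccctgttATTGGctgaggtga
Ccnb1: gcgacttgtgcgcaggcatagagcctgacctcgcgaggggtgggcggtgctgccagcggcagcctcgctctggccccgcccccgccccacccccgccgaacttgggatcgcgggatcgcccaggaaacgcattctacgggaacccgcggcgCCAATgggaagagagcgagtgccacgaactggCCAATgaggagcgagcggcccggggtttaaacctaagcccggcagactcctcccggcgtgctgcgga
Ccnb2: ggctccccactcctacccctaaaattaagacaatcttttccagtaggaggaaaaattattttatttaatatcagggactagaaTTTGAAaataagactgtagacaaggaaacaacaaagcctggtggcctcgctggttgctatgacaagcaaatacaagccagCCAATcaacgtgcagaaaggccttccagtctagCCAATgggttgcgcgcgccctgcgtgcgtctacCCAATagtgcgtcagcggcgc
Cdk1: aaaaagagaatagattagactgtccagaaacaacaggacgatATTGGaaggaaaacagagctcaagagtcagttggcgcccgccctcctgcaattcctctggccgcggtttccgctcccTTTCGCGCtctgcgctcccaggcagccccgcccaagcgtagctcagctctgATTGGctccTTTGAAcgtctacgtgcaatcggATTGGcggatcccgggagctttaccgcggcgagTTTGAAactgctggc
The windows lie on the minus strand of chromosome 16 at 18811973 to 18812222 for Cdc45, the plus strand of chromosome 11 at 98907901 to 98908150 for Cdc6, and the minus strand of chromosome 1 at 128359706 to 128359955 for Mcm6. Those of Ccnb1, Ccnb2 and Cdk1 lie on the minus strands of chromosome 13 at 100786487 to 100786736, chromosome 9 at 70421555 to 70421804 and chromosome 10 at 69352913 to 69353162.

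Of the 39 members, 33 were matched to a promoter in that table. An E2F match stood in 4 of 12 S phase promoters (33.3%) and in 1 of 15 mitotic promoters (6.67%), against 2.16% of the 27025 genes with a promoter. A CHR match stood in 3 of 12 S phase promoters (25%) and 8 of 15 mitotic promoters (53.3%), against 19.6% of all genes. The CCAAT box stood in 9 of 12 S phase promoters (75%) and 14 of 15 mitotic promoters (93.3%), against 37.5% of all. Cdk1 was the member shown here that held all 3 kinds, and Mcm7, an S phase member not shown, held them too. Of the promoters shown, that of Cdc45 had no E2F match and that of Ccnb1 no CHR match. These matches describe the letters in the windows only.

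A level below is the log2 processed signal of a probe minus the array's 75th percentile over all non-control probes, and a difference is the KO mean minus the WT mean of that level. Levels of different probes cannot be set against each other. A gene was tested if, in KO or in WT, its probe exceeded background clearly on both arrays (the scanner's "well above background" mark), which 38 of the 39 members and 19166 genes in all passed. The exception was Ccne2, which encodes cyclin E2 and was well above background on 0 KO arrays and 0 WT arrays. The share of spots with that mark ran from 63.5% to 69.8% over the arrays, and 0 spots were saturated. KO array 1 was less even than the others, with an SD of 0.157 in the scanner's fitted signal surface against 0.0499 to 0.0560, and that surface had been divided out at 0.801% of its well above background spots, against 100% on the other arrays.

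The defining markers of the labelled cells that are reported here were present: Cd3e, Cd3d, Cd3g, Cd4, Il17f, Il17a, Rora and Il23r were well above background on all 4 arrays. At an unadjusted limma p under 0.05, Il17a was lower in KO by a difference of -3.17, Il23r by -3.11, Il17f by -2.01 and Rora by -0.59, while Cd4 and Cd3e differed by -0.16 and -0.064. Of the 8 CD8 and NK cell markers 6 were well above background on all 4 arrays and Ncr1 on none. Their summed level was 3.93 and 4.29 in KO and 4.12 and 4.41 in WT, with 3 higher in KO (Cd8a by 1.30, Prf1 by 1.23 and Eomes by 1.05, each at an unadjusted p under 0.05) and 3 lower without reaching that p (Klrd1 at -0.47, Klrk1 at -0.13 and Cd8b1, the partner chain of Cd8a, at -0.13). Summed levels of activation markers were 7.91 and 7.37 in KO and 7.28 and 7.50 in WT. For resting T cell markers they were 7.93 and 8.07 in KO and 7.94 and 8.17 in WT, for B cell markers 2.16 and 2.29 in KO and 2.01 and 1.59 in WT, and for myeloid markers 4.44 and 4.36 in KO and 4.26 and 4.24 in WT. These sums are set by their brightest genes. Among the activation markers Myc (-0.60), Cd69 (-0.40) and Cd44 (-0.33) were lower on both KO arrays than on both WT arrays. So were 22.4% of all genes, and of these 3 markers only Myc reached an unadjusted limma p under 0.05. The other 3, Il2ra (0.37), Slc7a5 (0.24) and Tfrc (0.10), had higher means in KO and overlapping genotypes. Among the resting markers Tcf7 (-0.66), Lef1 (-0.50) and S1pr1 (-0.49) were lower and Il7r (0.49) higher at an unadjusted p under 0.05, and among the B cell markers Ebf1 (-0.97) and Cd22 (-0.60) were lower and Cd79b (1.16) higher. Of the erythroid markers given here, Epor was at 1.40 and 1.54 in KO and 2.02 and 1.92 in WT, a difference of -0.50 with an unadjusted p of 0.0162, Hba-a1 differed by 0.23, and Alas2 was well above background on no array. The part of such cells in the differences below was not tested. In a bulk sample, fewer dividing cells and less RNA of a gene per dividing cell cannot be told apart.

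No member passed limma's test over all genes. With Benjamini-Hochberg adjustment, 0 of the 38 tested members and 0 of 19166 genes (0%) had an adjusted p under 0.05, and the smallest adjusted p of a member was 0.395. Without adjustment, 2 members had a p under 0.05, Cdc45 and Wee1, both higher in KO, where 7.22% of all genes were higher, 4.12% lower and 11.3% either at that p. Both lost that p with median scaling (0.27, p of 0.180 for Cdc45; 0.20, p of 0.275 for Wee1), with the authors' matrix values and with no filter on dim probes (p of 0.0515 and 0.0748). Differences of the members ran from -0.63 to 0.43, with SEs of 0.115 to 0.708. A difference above 0 was found in 31 of 38 members, against 52.4% of all genes, and the median difference was 0.14 against 0.016 over all genes. Both KO arrays lay above both WT arrays for 18 members (47.4%), against 25.4% of all genes, and both lay below for 0 members, against 22.4%. These shares turn on scaling. When the arrays were aligned at their medians instead, the middle difference of all genes was -0.14, that of the members -0.016, and 5 members lay apart upwards (13.2%, against 12.2% of all genes).

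The lists differed in how often the genotypes lay apart, and the difference between lists was not tested. Of 17 mitotic members 15 had a higher level in KO, the median difference was 0.18, and both KO arrays lay above both WT arrays for 12 (70.6%). Of 13 S phase members 10 had a higher level, with a median difference of 0.078, but the genotypes lay apart for 3 (23.1%), a share near the 25.4% of all genes. Each of the 30 values failed the test over all genes, and the genes of a list are not independent. With KO array 1 divided by its fitted surface, 10 mitotic members (58.8%) and 3 S phase members (23.1%) lay apart upwards. The share of all genes was then 21.8%. With median scaling the mitotic and S phase medians were 0.017 and -0.082, and 3 of 17 (17.6%) and 2 of 13 (15.4%) lay apart, against 12.2% of all genes. Median scaling takes 1 constant from every difference, so it leaves each list's distance from the median of all genes, 0.16 and 0.062, as it was by construction.

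**Figure D1:**
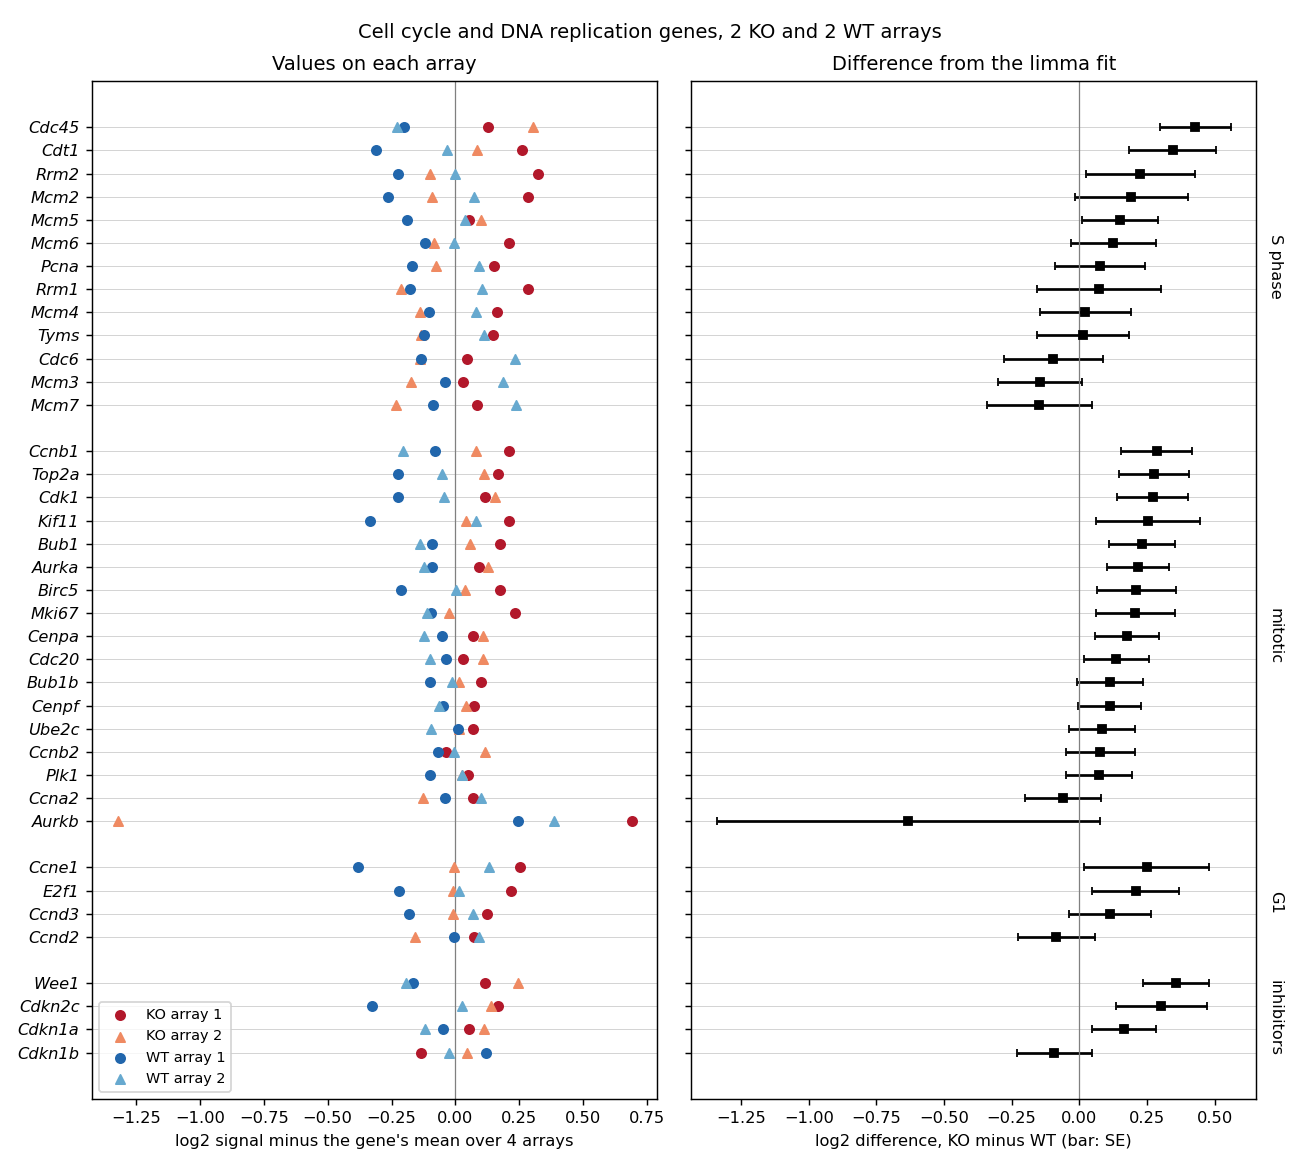
Left, the log2 signal of each tested member on each of the 4 arrays, minus the gene's mean over the arrays; right, the log2 difference KO minus WT with its SE from limma. KO array 1 lies above KO array 2 for 11 of 13 S phase genes and WT array 2 above WT array 1 for 12 of 13, Cdc45 being an exception to both, while for 12 of 17 mitotic genes both KO arrays lie to the right of both WT arrays.

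Cdc45 and Cdt1 had the highest differences of the S phase list, and neither passed. Cdc45 encodes a part of the active replicative helicase. It had levels of 0.26 and 0.44 on the KO arrays and -0.06 and -0.09 on the WT arrays. The genotypes did not overlap, and the difference of 0.43 ± 0.13 (SE), a 1.35-fold higher signal with a 95% interval of 0.073 to 0.79, had a limma p of 0.0283 and an adjusted p of 0.395. Its probe lies on the minus strand of mm9 chromosome 16 at 18807449 to 18807508, and it is shown because it measured the S phase gene with the smallest p.
Cdc45 probe: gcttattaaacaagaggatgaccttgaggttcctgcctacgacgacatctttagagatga
Cdt1, which loads the helicase onto origins in G1, had levels of 5.31 and 5.13 in KO and 4.74 and 5.01 in WT. The difference was 0.35 ± 0.16 (SE) with an adjusted p of 0.489, and the probe lay in a corner block of the array where some spots were dim. It was 0.57 with KO array 1 divided by its fitted surface. Cdc6, the partner of Cdt1 in loading, had levels of 1.21 and 1.03 in KO and 1.04 and 1.40 in WT, which overlapped, and a difference of -0.097. Its other probe gave -0.66 and -0.64 in KO and -1.22 and -0.98 in WT, a difference of 0.45, so the 2 probes of Cdc6 disagreed in sign.

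The 6 Mcm genes, whose proteins form the ring of the helicase, showed no common direction. Mcm5 was at 4.92 and 4.97 in KO and 4.68 and 4.91 in WT, and was the only one of them whose genotypes lay apart, by 0.0145 between the nearest arrays. Mcm7 was at 5.41 and 5.10 in KO and 5.24 and 5.57 in WT, and Mcm3 at 5.54 and 5.34 in KO and 5.47 and 5.70 in WT. Both had overlapping genotypes and the 2 lowest differences of the list, -0.15 ± 0.19 and -0.15 ± 0.16 (SE). Mcm2, Mcm6 and Mcm4 had differences of 0.19, 0.13 and 0.023. The second probe of Mcm3 gave -0.12, close to the first.

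Genes that supply and use nucleotides had overlapping genotypes. Differences were 0.23 ± 0.20 (SE) for Rrm2 and 0.073 ± 0.23 (SE) for Rrm1, the small and large subunits of ribonucleotide reductase, 0.014 ± 0.17 (SE) for Tyms, the thymidylate synthase gene, and 0.078 ± 0.17 (SE) for Pcna, the sliding clamp of DNA polymerase. Rrm1 shows the pattern most plainly, at 5.06 and 4.56 on the KO arrays and 4.60 and 4.88 on the WT arrays. KO array 1 and WT array 2 were high, and KO array 2 and WT array 1 were low.

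That pattern ran through the S phase list. KO array 1 was above KO array 2 for 11 of 13 genes, with a median gap of 0.28, and WT array 2 above WT array 1 for 12 of 13, with a median gap of 0.23. Both gaps exceeded the list's median difference between genotypes of 0.078. Over all genes the same gaps were 0.092 and 0.055. Array against array, the S phase median was 0.32 for KO array 1 minus WT array 1 and -0.17 for KO array 2 minus WT array 2. In the mitotic list the gaps between replicates were smaller, at 0.055 and 0.062, and the 4 pairings of a KO with a WT array gave medians of 0.11 to 0.20, all above 0.

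**Figure D2:**
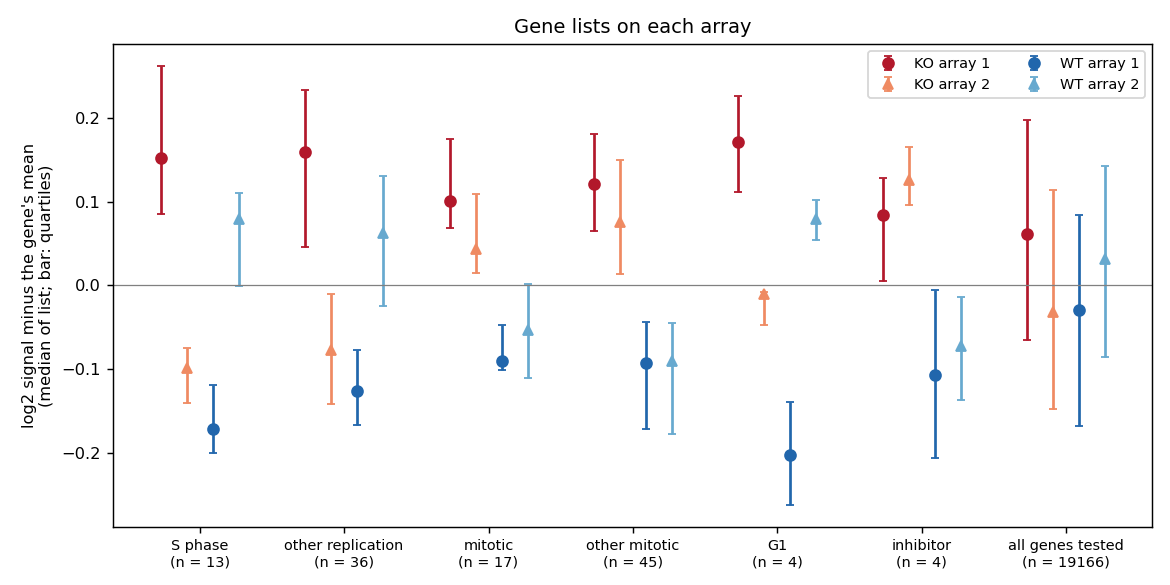
Median log2 signal of each gene list on each array, after each gene's mean over the 4 arrays was subtracted; bars span the quartiles over genes and n is the number of genes. The S phase list is high on KO array 1 and WT array 2, at 0.15 and 0.079, and low on KO array 2 and WT array 1, at -0.099 and -0.17. The G1 list, of 4 genes, is high on the same arrays and low on WT array 1, at -0.20, but near 0 on KO array 2, at -0.0096. Both mitotic lists are above 0 on both KO arrays and below 0 on both WT arrays.

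The highest differences of the mitotic list were those of Ccnb1, for cyclin B1, Top2a and Cdk1, and none passed. Ccnb1 was at 4.84 and 4.71 in KO and 4.55 and 4.42 in WT, a difference of 0.29 ± 0.13 (SE) and a 1.22-fold higher signal (limma adjusted p of 0.482). The probe used gave 0.62 with KO array 1 divided by its fitted surface. All 3 Ccnb1 probes lay apart in the same direction, with differences of 0.27 to 0.33. Cdk1, the kinase that cyclin B activates, was at 2.35 and 2.39 in KO and 2.01 and 2.19 in WT, a difference of 0.27 ± 0.13 (SE). For both genes both KO arrays lay above both WT arrays, but the order within each genotype was opposite, and neither gene passed. Of Cdk1's 2 other probes 1 gave 0.19, and 1, which overlaps the probe used by 41 bases, was well above background on 0 KO arrays and 1 WT array.

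The other mitotic cyclins differed less. Ccnb2, for cyclin B2, had a difference of 0.077 ± 0.13 (SE) and overlapping genotypes. Ccna2, the cyclin A of S and G2 phase, was at 4.84 and 4.65 in KO and 4.73 and 4.88 in WT, with a difference of -0.060 ± 0.14 (SE). KO array 1 and WT array 2 were the high ones, as in the S phase list. Of the anaphase-promoting complex's activator and E2 enzyme, Cdc20 was at 5.57 and 5.65 in KO and 5.51 and 5.45 in WT and Ube2c at 5.66 and 5.61 in KO and 5.60 and 5.50 in WT. Both lay apart, Ube2c by 0.0053 between the nearest arrays, with differences of 0.14 and 0.085.

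The members that act on chromosomes and the spindle had differences of 0.11 to 0.28, and none passed. Top2a, the topoisomerase that untangles sister chromatids, was at 5.16 and 5.11 in KO and 4.77 and 4.94 in WT, a difference of 0.28 ± 0.13 (SE). Mki67, the proliferation marker Ki-67, was at 6.88 and 6.62 in KO and 6.55 and 6.54 in WT, a difference of 0.21 ± 0.15 (SE), and its other probe gave 0.31. Both genes lay apart by genotype, and for Mki67 KO array 2 was close to the WT arrays. The centromere histone gene Cenpa was at 5.30 and 5.34 in KO and 5.17 and 5.10 in WT, and the kinetochore gene Cenpf at -1.23 and -1.26 in KO and -1.35 and -1.37 in WT, with differences of 0.18 and 0.11, which were 0.017 and -0.049 with median scaling. Kif11, the motor that separates spindle poles, overlapped at 0.25 ± 0.19 (SE), and WT array 2 lay between the KO arrays.

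The checkpoint and kinase genes followed. Bub1 and Bub1b encode the spindle checkpoint kinase and its relative BubR1. Bub1, measured by 10 spots, was at 2.95 and 2.83 in KO and 2.68 and 2.63 in WT, a difference of 0.23 ± 0.12 (SE). Bub1b was at 3.27 and 3.18 in KO and 3.07 and 3.16 in WT, a difference of 0.11 ± 0.12 (SE). Aurka, the Aurora kinase of spindle poles, was at 5.11 and 5.14 in KO and 4.92 and 4.89 in WT, a difference of 0.22 ± 0.12 (SE). In these 3 genes the genotypes lay apart. Birc5, survivin, a partner of Aurora B, was at 6.91 and 6.77 in KO and 6.52 and 6.73 in WT, and its 3 probes gave 0.18 to 0.21. Plk1, the Polo kinase, had a difference of 0.073 ± 0.12 (SE) and overlapped. Dividing KO array 1 by its fitted surface also moved Aurka to 0.35, Cdk1 to 0.15, Birc5 to 0.12 and Bub1b to 0.037.

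Aurkb, the Aurora B gene, went against the rest, at -4.30 and -6.31 in KO and -4.74 and -4.60 in WT. KO array 1 was the highest and KO array 2 the lowest, and the difference of -0.63 ± 0.71 (SE) was smaller than its error. The probe was well above background on 1 of 2 KO arrays and both WT arrays and lay in a corner block. It turned to 0.59 with KO array 1 divided by its fitted surface and to 0.17 with normexp background correction.

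The genotypes of the G1 genes overlapped. Ccne1, for cyclin E1, was at 3.26 and 3.003 in KO and 2.63 and 3.14 in WT, and E2f1, the founding E2F gene, at 2.23 and 1.999 in KO and 1.79 and 2.02 in WT. Differences were 0.25 ± 0.23 and 0.21 ± 0.16 (SE), and WT array 1 was the lowest in 3 of the 4 tested G1 genes. Ccnd3, the D cyclin with a central part in T cell growth, had a difference of 0.11 ± 0.15 (SE). Ccnd2, the other D cyclin listed, was at 4.94 and 4.70 in KO and 4.86 and 4.95 in WT, a difference of -0.085 ± 0.14 (SE).

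Of the genes that hold the cycle back, 3 of 4 lay apart, all higher in KO, where 25.4% of all genes lay apart upwards. Wee1, the kinase that inhibits Cdk1 and a reported target of miR-155 in human cells, was at 1.28 and 1.41 in KO and 1.0005 and 0.97 in WT. Its difference was 0.36 ± 0.12 (SE), a 1.28-fold higher signal with a 95% interval of 0.022 to 0.69, a limma p of 0.0415 and an adjusted p of 0.423. The probe lies on the plus strand of mm9 chromosome 7 at 117286573 to 117286632. The Wee1 difference was 0.20 with median scaling and 0.78 with KO array 1 divided by its fitted surface. Cdkn2c, for p18, was at 0.49 and 0.46 in KO and -0.0043 and 0.35 in WT, a difference of 0.30 ± 0.17 (SE). With median scaling it was 0.14, and that of Cdkn1a, described next, was 0.0054.

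Neither of the listed CDK inhibitors of the p21 family passed. Cdkn1a, for p21, measured by 10 spots, was at 4.68 and 4.74 in KO and 4.58 and 4.51 in WT, a difference of 0.17 ± 0.12 (SE). Its other 2 probes gave 0.46, with the genotypes apart, and 0.22, with overlapping genotypes. Cdkn1b, for p27, was at 4.46 and 4.64 in KO and 4.72 and 4.57 in WT, a difference of -0.092 ± 0.14 (SE), while its other probe gave 0.27, so that the direction for Cdkn1b depends on the probe.

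The direct contrast of the lists gave no difference beyond the replicates. The median level of the S phase list minus that of the mitotic list was 0.20 and -0.0093 on the KO arrays and -0.034 and 0.12 on the WT arrays. The genotype means of 0.095 ± 0.15 and 0.043 ± 0.11 (SD, n = 2 each) differed by 0.053, less than the pooled SD of 0.13. Taken as the difference between the lists' median gene differences, a summary added after the data were seen, the contrast was -0.099, of opposite sign, and with list means it was -0.022. KO array 1 was the highest and WT array 1 the lowest of the 4 in the first summary. Since medians of levels depend on which gene is in the middle, 0.053 is no measure of direction.

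Further genes of the cell cycle were described in 3 lists, and differences between lists were not tested. Of 45 other mitotic genes, all tested, 41 had a higher level in KO, against 52.4% of all genes, with a median difference of 0.22. Both KO arrays lay above both WT arrays for 34 (75.6%), against 25.4% of all genes, and below for 0, against 22.4%. In limma 5 of them were higher at an unadjusted p under 0.05, against 7.22% of all genes, and 0 lower, against 4.12%. After adjustment 0 passed over all genes. Of 36 other replication genes 25 had a higher level, with a median of 0.086. In that list 7 lay apart upwards (19.4%) and 2 downwards (5.56%), against the same 25.4% and 22.4%, with 0 at that p in either direction. With median scaling the medians were 0.056 and -0.074, and 12 (26.7%) and 1 (2.78%) lay apart upwards, against 12.2% of all genes. With KO array 1 divided by its fitted surface, 28 (62.2%) and 7 (19.4%) did so, against 21.8% of all genes.

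**Figure D3:**
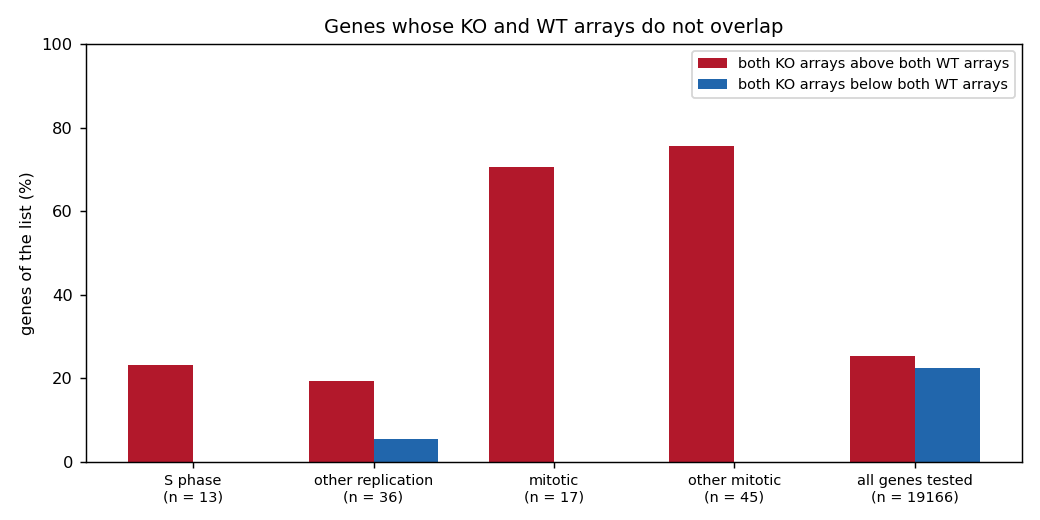
Percent of the tested genes of each list for which both KO arrays lay above both WT arrays (red) or below them (blue), at the 75th percentile scaling. The mitotic lists stand at 70.6% and 75.6% in the upward direction and the S phase and replication lists at 23.1% and 19.4%, beside 25.4% of all 19166 genes.

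Among the other mitotic genes the smallest p belonged to Dlgap5, a spindle assembly gene, Anln, which encodes the cleavage furrow protein anillin, and Cenpn, a centromere gene. Dlgap5 was at 2.41 and 2.36 in KO and 2.04 and 2.03 in WT, a difference of 0.35 ± 0.12 (SE). Anln and Cenpn differed by 0.48 ± 0.16 and 0.36 ± 0.12 (SE), and the limma adjusted p of the 3 genes was 0.415 to 0.424. Among the other replication genes, Hells, a chromatin remodeller, was at 0.83 and 0.62 in KO and 1.06 and 1.05 in WT, a difference of -0.33 ± 0.14 (SE), opposite to Ung, the uracil glycosylase gene, at 0.25 ± 0.13 and Gins1, a helicase partner of Cdc45, at 0.30 ± 0.18 (SE).

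The list of 38 other G1, restriction point and checkpoint genes showed no common direction, with 17 higher, 21 lower and a median of -0.046. At an unadjusted p under 0.05 in limma 2 were higher and 2 lower, against 7.22% and 4.12% of all genes, and 0 passed over all genes. The largest differences at that p were those of the neighbouring INK4 inhibitor genes Cdkn2b and Cdkn2a, which encode p15 and p16 with ARF. Btg2 at -2.13 ± 1.32 and Cdk7 at -1.20 ± 0.76 (SE), with probes in corner blocks, did not reach that p. Both were lowest on KO array 1. Cdkn2b was at -2.72 and -3.41 in KO and -4.27 and -4.50 in WT, a difference of 1.32 ± 0.28 (SE), and Cdkn2a at -2.46 and -3.23 in KO and -4.00 and -4.03 in WT, a difference of 1.17 ± 0.29 (SE). With normexp background correction the differences were 0.72 and 0.65. For both genes KO array 1 was the highest, and their adjusted p was 0.325 and 0.337. Myc, the growth transcription factor gene, was lower in KO at 3.65 and 3.32, against 3.94 and 4.23 in WT, a difference of -0.60 ± 0.19 (SE) with an adjusted p of 0.406.

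**Figure D4:**
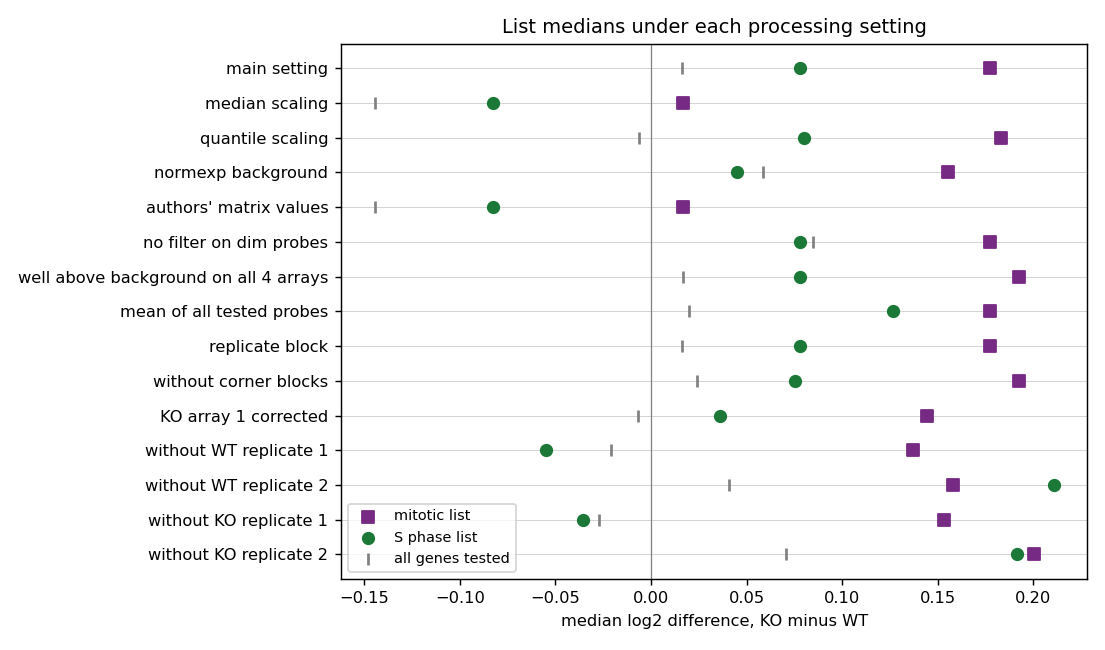
Median log2 difference KO minus WT of the mitotic list (squares), the S phase list (circles) and all genes tested (bars) under the 75th percentile setting and 14 other settings. The mitotic median lies between 0.017 and 0.20, above that of all genes in each setting, while the S phase median runs from -0.082 to 0.21 and crosses that of all genes. Some settings could not change this order. Median scaling, which the authors' matrix repeats, keeps each list's distance from all genes by construction, and the replicate block keeps the list medians.

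With 1 array left out, the mitotic median was 0.14 to 0.20, against -0.055 to 0.21 for the S phase list. The S phase median was -0.055 without WT array 1 and -0.035 without KO array 1, and 0.21 without WT array 2 and 0.19 without KO array 2. With 2 arrays per genotype the smallest two-sided p of an exact permutation test is 0.333, so none is given for single genes.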

How the data were processed

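For each array the authors deposited the scanner file, written by Feature Extraction 10.5.1.1 according to its header. Per the file headers, the intensity used here, the processed signal, is on a linear scale and had local background taken off and spatial trends removed. On KO array 1, however, the fitted signal surface had been divided out at only 0.801% of well above background spots, against 100% on the other arrays. The deposited files also hold the fitted multiplicative surface, a linear ratio. A series matrix from the authors holds log2 values, and no source used here states its steps. Each of its columns had a median of 5.54 and differed from the log2 processed signal of its array by 1 constant within 0.001 for 99.4% to 99.5% of probes, so scale and direction were settled and it served as an alternative only.

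Control spots and outlier spots were left out, spots of a probe were averaged (pandas 2.3.3), and the 75th percentile of each array was subtracted from its log2 signals. Probes were named through RefSeq's GRCm38.p6 table, with positions on mm9 as in the files. Each gene was given by its brightest tested probe. limma 3.58.1 in R 4.3.3 (lmFit, eBayes) compared KO with WT over 19166 genes, with 2 residual and 2.16 prior degrees of freedom and Benjamini-Hochberg adjustment at 0.05. For 20 genes, 0 of them members, an array was missing. The fit was tested on simulated data. All arrays were on 1 slide, with WT in one slide row and KO in the other, so genotype and slide row cannot be told apart. Precision is limited by the number of arrays. Probes in the corner blocks (columns from 139, rows up to 52 or from 311) were marked.

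The members and lists were chosen with earlier results of these data known. Array values are given for members whose genotypes did not overlap or whose p was under 0.05, and for those with the highest and lowest differences of each role. Alternatives were the scaling, the background correction, the matrix, the filter, the probe rule, the replicate number as a block, the corner blocks, a corrected KO array 1, the list membership and each array left out. Some marker genes, and the summed levels that include them, are not reported here.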

Additional observations from a re-analysis of the deposited data

How the results depend on the processing

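Of the 38 tested members, 18 turned under none of the 14 alternatives that gave them a value (Cdt1 and Aurkb have none without corner blocks), and 0 member values passed an adjusted p of 0.05 under any. Of these alternatives the replicate block could turn no value, and the authors' matrix repeats median scaling. The number of genes passing over the whole table was 0, except that it was 27 without WT replicate 1, so leaving out single replicates gave 0 to 27. The members' median of 0.14 was -0.016 with median scaling and with the authors' matrix values, a shift shared by all genes (-0.14), and 0.071 to 0.20 when single replicates were left out. The S phase minus mitotic value of 0.053 was 0.33 with the mean of all tested probes, -0.14 without corner blocks and -0.099 as the difference between the lists' median gene differences, and -0.052 to 0.16 with single replicates left out; a median of levels changes when another gene takes the middle. With the replicate block, no value of a list moved, and the count of passing genes was 0, with a smallest adjusted p of 0.360; same-numbered arrays did not deviate together (r of -0.00092 over 19166 genes, which are not independent), and Cdc45 and Wee1 had a p above 0.05 in the paired fit.

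With median scaling and with the matrix alike, Ccnb2 was at -0.083, Ccnd3 at -0.046, Bub1b at -0.045, Plk1 at -0.087, Cdc20 at -0.024, Mcm4 at -0.14, Mcm5 at -0.0089, Mcm6 at -0.034, Pcna at -0.082, Rrm1 at -0.087, Tyms at -0.15, Ube2c at -0.076 and Cenpf at -0.049, against positive values with the 75th percentile. Quantile scaling turned Tyms to -0.041, and normexp turned Aurkb to 0.17 and Mcm4 to -0.036. The mean of all probes turned Cdc6 to 0.18 and Cdkn1b to 0.090. Correcting KO array 1 turned Aurkb to 0.59, Mcm4 to -0.066, Mcm6 to -0.0090, Tyms to -0.081 and Cdkn1b to 0.044. That correction also moved, without a turn, Rrm2 to 0.11, E2f1 to 0.12, Ccnd3 to 0.048 and Mcm7 to -0.26. Beyond scaling and the averaging of probes, the cause was not tested. With single replicates left out, values crossed 0 for Ccnd3 (-0.011 to 0.24), Ccne1 (-0.0078 to 0.51), Mcm4 (-0.13 to 0.17), Pcna (-0.055 to 0.21), Rrm1 (-0.18 to 0.32), Tyms (-0.13 to 0.15), Ccna2 (-0.16 to 0.038), Cdc6 (-0.28 to 0.087), Mcm7 (-0.31 to 0.014), Mcm6 (-0.020 to 0.27), Ccnd2 (-0.20 to 0.031) and Aurkb (-1.64 to 0.37). Unadjusted counts over all genes were 2174 in the main setting, 4238 with normexp and 1431 without WT replicate 1, and the share of these that were higher was 63.7%, 72.7% and 72.2%, against 24.9% with median scaling and 51.6% with quantile scaling.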
